A study of Mus musculus with 6 samples.

Results

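Bhlhe40, Bhlhe41 and Ciart encode transcriptional repressors that act on the same E-box elements as the clock. They were found by symbol, through their Entrez Gene IDs, as 3 of the 27179 genes in the deposited counts, and all 3 passed the filter on low counts that left 11934 genes for testing. The libraries came from 3 immortalized mouse embryonic fibroblast (MEF) lines labelled C57BL/6, all grown in high-glucose DMEM with serum, and each line gave 2 libraries. Cry/Per_KO cells lack Cry1, Cry2, Per1 and Per2. Cry/Per/Nr1d_KO cells lack these and Nr1d1 and Nr1d2, and are 1 clone made from the Cry/Per_KO line with CRISPR. Per/Nr1d_KO cells lack Per1, Per2, Nr1d1 and Nr1d2 and keep Cry1 and Cry2. The loss of Per1 and Per2 was thus shared by every group, and there was no wild-type line. The Per/Nr1d_KO line was not made from the other lines, so the presence of CRY and the origin of the line cannot be told apart in its comparisons.

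In the circadian feedback loop, the CLOCK-BMAL1 heterodimer binds the E-box letters CACGTG and activates clock-controlled genes, and PER and CRY proteins hold this activation back. BHLHE40 (DEC1) and BHLHE41 (DEC2) are related basic helix-loop-helix proteins that bind the same letters themselves and repress, competing with CLOCK-BMAL1. CIART, also called CHRONO or GM129, is not a helix-loop-helix protein and represses by binding to the CLOCK-BMAL1 complex. All 3 genes are themselves CLOCK-BMAL1 targets, so they form repressor arms beside PER, CRY and NR1D. The question asked here is at what levels these repressors remained when combinations of the other repressors were missing.

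The libraries held between 53764390 and 85927236 counts. The counts of a group's 2 libraries differed by more than sampling noise, with a chi-square of 8.07 to 16.8 per degree of freedom, so none was treated as a repeat deposit of another. For 4 of the 6 libraries the name of the deposited counts and the genotype label disagree, each of the Cry/Per_KO and Cry/Per/Nr1d_KO pairs carrying the name of the other line. Groups here follow the genotype labels, both pairs are written with the word labelled, and every direction between them turns around if the labels are exchanged. The targeted genes Nr1d1, Nr1d2, Cry1, Cry2, Per1 and Per2 were all still transcribed, with 1004 to 9337 normalized counts in every library, so that the presence of their RNA is no check of the labels. The study's own account of clock gene RNA in these lines, like the names of the deposited counts, favours the exchanged assignment, so the genotype labels of both pairs may be in error and each direction between them is provisional. Of 9 fibroblast markers, 7 passed the filter on low counts, while Dcn and Thy1 did not, Thy1 having at most 4.22 normalized counts as a group mean. Of the 7, 4 were called higher and 3 lower in Per/Nr1d_KO against the Cry/Per/Nr1d_KO-labelled libraries, beside 11.3% and 9.35% of all genes tested. Col3a1 rose the most (log2 fold change 5.72) and Pdgfra fell the most (-1.61), and the part of this in the results was not tested. None of 4 epithelial and 3 endothelial markers and 1 of 3 blood markers, Cd68, passed the filter. Cd68 was called higher in Per/Nr1d_KO against the Cry/Per/Nr1d_KO-labelled and the Cry/Per_KO-labelled libraries (log2 fold changes 1.135 and 0.81). Of the markers below the filter, Cdh1 (epithelial) averaged 105 normalized counts in Per/Nr1d_KO, against 17.9 and 9.98 in these libraries. Pecam1 (endothelial) went the other way, with 9.25 against 19.9 and 20.8. Other markers of these lists followed neither. Kdr (endothelial) averaged 73.7 in Per/Nr1d_KO, against 92.4 in the Cry/Per/Nr1d_KO-labelled and 21.2 in the Cry/Per_KO-labelled libraries. Epcam (epithelial) averaged 22.4, against 29.5 and 11.1. The part of these markers in the results was not tested either.

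The promoters of Ciart and Bhlhe41 are shown because the E-box is the element through which these genes take part in the loop. Of the 3 genes, 2 matched an entry in the RefSeq promoter table of GRCm38.p6, the assembly of mm10, which gives 250 bases before and 50 bases after the start. Both sequences run 5′ to 3′ on the minus strand, and capitals mark CACGTG. The Ciart window is chr3:95882179-95882478 and the Bhlhe41 window is chr6:145865371-145865670.
Ciart: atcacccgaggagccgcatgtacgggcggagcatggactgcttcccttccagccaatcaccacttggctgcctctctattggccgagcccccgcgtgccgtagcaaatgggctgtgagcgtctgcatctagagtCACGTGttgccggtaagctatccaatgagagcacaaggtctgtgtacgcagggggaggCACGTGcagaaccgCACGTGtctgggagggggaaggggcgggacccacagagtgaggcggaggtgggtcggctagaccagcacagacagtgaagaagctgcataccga
Bhlhe41: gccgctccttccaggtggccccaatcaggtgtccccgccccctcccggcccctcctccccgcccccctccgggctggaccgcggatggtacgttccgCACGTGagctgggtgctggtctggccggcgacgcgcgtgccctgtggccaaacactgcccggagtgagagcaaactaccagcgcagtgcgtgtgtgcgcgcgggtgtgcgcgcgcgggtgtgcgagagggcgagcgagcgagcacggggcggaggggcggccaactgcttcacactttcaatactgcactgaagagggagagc

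The Ciart window held 3 copies of CACGTG, beginning at -116, -58 and -44 relative to the start. The Bhlhe41 window held 1 copy, beginning at -153. CACGTG reads the same on both strands, and 7.15% of the 32851 promoters in the table held it at least once, whereas 0.0883% held 3 or more copies. CACGTT, a variant E-box, and AGGTCA, the core of the element bound by NR1D and ROR receptors, were also searched on both strands and were in neither window, against 4.68% and 16.3% of all promoters.

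Bhlhe40 (Entrez Gene 20893, chromosome 6, from 108660629 to 108666925, plus strand, as GENCODE vM21 places it on GRCm38) had the highest level of the repressors also per length. It had 8451 and 8385 normalized counts in the Cry/Per_KO-labelled libraries, 5015 and 5170 in the Cry/Per/Nr1d_KO-labelled ones, and 2318 and 2138 in Per/Nr1d_KO. The group means were 8418 ± 46.9, 5092 ± 110 and 2228 ± 128 (SD, n = 2 each). Both Per/Nr1d_KO libraries lay below the other 4, as they did for 30.2% of the genes tested. Against the Cry/Per/Nr1d_KO-labelled libraries, Bhlhe40 fell 2.29-fold in Per/Nr1d_KO (log2 fold change -1.20, standard error 0.052, adjusted p = 8.94e-12, edgeR's quasi-likelihood test). Against the Cry/Per_KO-labelled ones it fell 3.79-fold (log2 fold change -1.92, standard error 0.052, adjusted p = 2.22e-14, edgeR). In RNA from whole cultures, fewer expressing cells and less RNA per cell cannot be told apart.

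Ciart (Entrez Gene 229599, chromosome 3, from 95878500 to 95882257) followed another order. It was highest in the Cry/Per/Nr1d_KO-labelled libraries, with 2229 and 2062 normalized counts, and had 1456 and 1557 in the Cry/Per_KO-labelled ones. Both Per/Nr1d_KO libraries were far below, at 425 and 418 normalized counts. The group means in this order were 2145 ± 118, 1507 ± 71.8 and 421 ± 4.54 (SD, n = 2 each). The fall in Per/Nr1d_KO was 5.10-fold against the Cry/Per/Nr1d_KO-labelled libraries (log2 fold change -2.35, standard error 0.075, adjusted p = 2.26e-13, edgeR). It was 3.58-fold against the Cry/Per_KO-labelled ones (log2 fold change -1.84, standard error 0.076, adjusted p = 4.24e-12, edgeR).

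Bhlhe41 (Entrez Gene 79362, chromosome 6, from 145858243 to 145865420) had the lowest level also per length, and the largest fall of the 3 genes. The Cry/Per_KO-labelled libraries had 738 and 725 normalized counts and the Cry/Per/Nr1d_KO-labelled ones had 551 and 583. In Per/Nr1d_KO it was nearly lost, with 22.8 and 24.5 normalized counts. The group means in this order were 731 ± 9.38, 567 ± 22.4 and 23.6 ± 1.16 (SD, n = 2 each). The Per/Nr1d_KO values rest on 18 and 31 counted reads, whose exact 95% Poisson intervals reach from 13.5 to 36.1 and from 16.6 to 34.7 normalized counts, covering counting error only. The fall was 23.7-fold against the Cry/Per/Nr1d_KO-labelled libraries (log2 fold change -4.57, standard error 0.14, adjusted p = 1.69e-13, edgeR) and 30.5-fold against the Cry/Per_KO-labelled ones (log2 fold change -4.93, standard error 0.14, adjusted p = 3.65e-14, edgeR). Among all tested genes, 167 had a lower log2 fold change than Bhlhe41 in the first of these comparisons and 131 in the second.

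**Figure D1:**
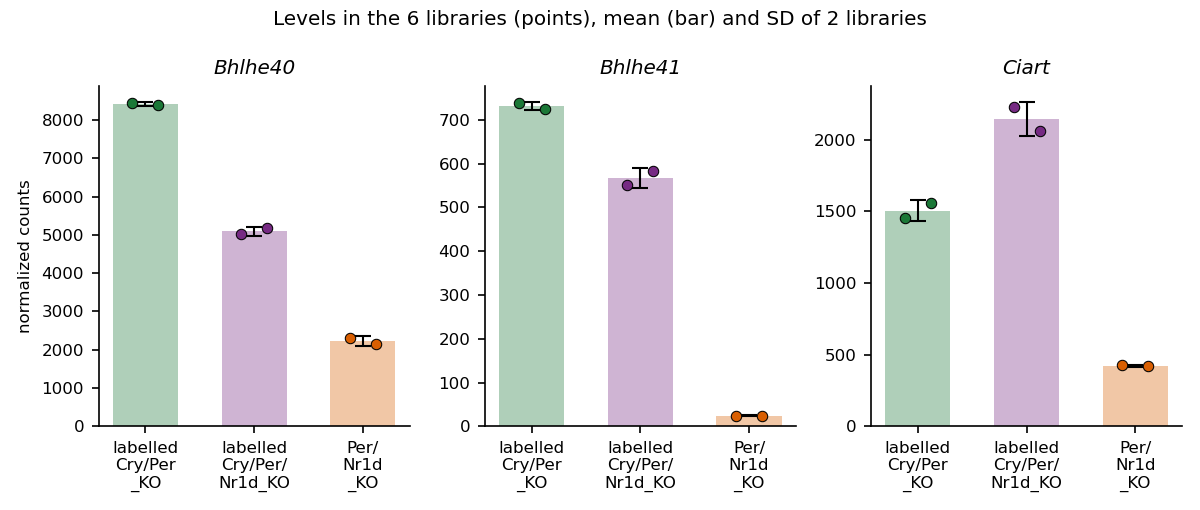
Normalized counts (y axis) of Bhlhe40, Bhlhe41 and Ciart in each library (points), with the group mean (bar) and SD of 2 libraries. The Per/Nr1d_KO libraries are the lowest for each gene, while the Cry/Per_KO-labelled libraries are the highest for Bhlhe40 and Bhlhe41 and not for Ciart.

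A gene was called changed at an adjusted p under 0.05 with a log2 fold change beyond 0.81 in either direction, the fold limit. All 3 repressor genes were called lower in Per/Nr1d_KO against both other groups, as were 7.14% of the genes tested. Taken singly, 9.35% of the genes tested were called lower and 11.3% higher in Per/Nr1d_KO against the Cry/Per/Nr1d_KO-labelled libraries, and 13.8% and 15.2% against the Cry/Per_KO-labelled ones. For each of the 3 genes both Per/Nr1d_KO libraries lay below the other 4 libraries, which held for 30.2% of the genes tested. The median log2 fold change of the 3 genes was -2.35 and -1.92 in these comparisons, beside 0.011 and 0.035 over all genes tested. Since both comparisons use the same Per/Nr1d_KO libraries, they are not independent. An exchange of the labels exchanges these comparisons and leaves every fall in place. The libraries of a line came from independent experiments, but separate cultures are not stated, so the p-values measure only the spread between these libraries, which may be technical.

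Between the Cry/Per_KO-labelled libraries and the Cry/Per/Nr1d_KO-labelled ones, which differ in Nr1d1 and Nr1d2, the repressors moved by smaller amounts and not in step. Bhlhe40 was 1.65-fold higher in the Cry/Per_KO-labelled libraries (log2 fold change 0.73, standard error 0.049, adjusted p = 3.48e-09, edgeR). Bhlhe41 was 1.29-fold higher (log2 fold change 0.37, standard error 0.083, adjusted p = 0.000962, edgeR). Ciart was 1.42-fold lower (log2 fold change -0.51, standard error 0.066, adjusted p = 4.77e-06, edgeR). Each difference was larger than the spread between libraries and stayed inside the fold limit, so none of the 3 genes was called, against 16.8% of the genes tested (7.86% higher and 8.95% lower). Without a limit on the fold, 38.1% of the genes tested were higher and 38.3% lower, so these genes were among many that passed the test alone. By the names of the deposited counts, the assignment that the study's account favours, the directions are the opposite, with Bhlhe40 and Bhlhe41 lower and Ciart higher in Cry/Per_KO. When the median of each gene's chromosome was subtracted, the log2 fold changes by label became 0.38 (Bhlhe40), 0.023 (Bhlhe41) and 0.13 (Ciart). Ciart then no longer had the opposite sign.

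The ratio of 2 of these genes within a library does not depend on library size and shows where they parted. The log2 ratio of Bhlhe40 to Ciart was 1.17 and 1.33 in the Cry/Per/Nr1d_KO-labelled libraries, 2.54 and 2.43 in the Cry/Per_KO-labelled ones, and 2.44 and 2.35 in Per/Nr1d_KO. The latter groups differed by 0.086, about the pooled SD between libraries of 0.087, so Bhlhe40 and Ciart had near the same ratio there although each was several-fold lower in Per/Nr1d_KO. The log2 ratio of Bhlhe40 to Bhlhe41 was 3.18 and 3.14, 3.51 and 3.53, and 6.55 and 6.34 in the same order of groups, a loss of Bhlhe41 beyond that of its relative. For Bhlhe41 to Ciart the ratios were -2.01 and -1.82, -0.98 and -1.10, and -4.10 and -3.99. With 3 groups of 2 libraries an exact permutation test cannot go below p = 0.0667, which the ratios of Bhlhe40 to Bhlhe41 and of Bhlhe41 to Ciart reached. The ratio of Bhlhe40 to Ciart had an exact permutation p of 0.133, and after Benjamini-Hochberg adjustment over the 3 ratios the exact p-values were 0.1, 0.1 and 0.133.

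**Figure D2:**
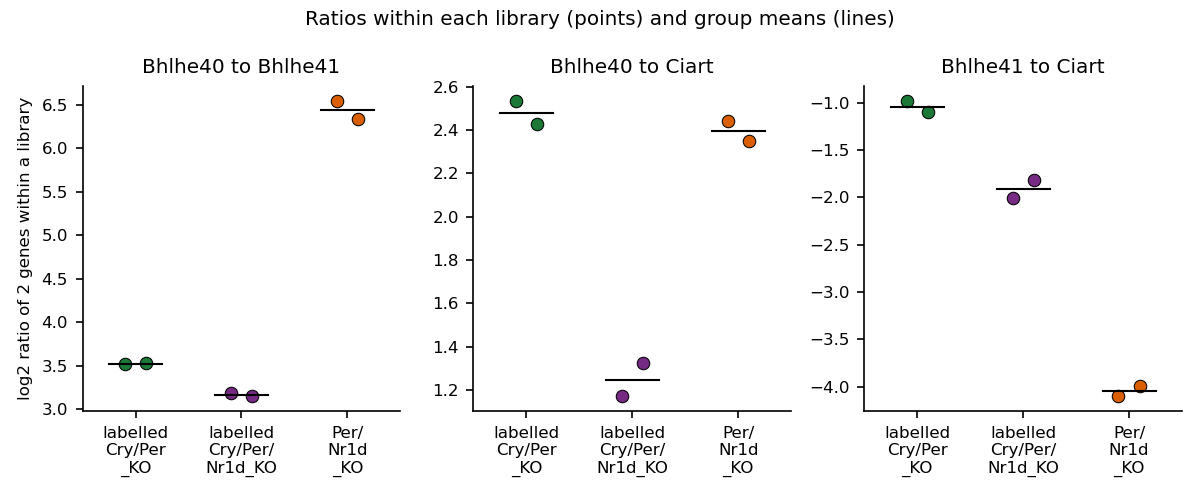
Log2 ratio of 2 genes within each library (points; y axis) by group, with group means (lines). Bhlhe40 to Bhlhe41 is highest in Per/Nr1d_KO, and Bhlhe40 to Ciart is lowest in the Cry/Per/Nr1d_KO-labelled libraries. The y axes do not start at 0.

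Levels were compared between genes per kilobase of merged exons (4705 bases for Bhlhe40, 6720 for Bhlhe41 and 2261 for Ciart in GENCODE vM21). On this scale, as mean normalized counts per kilobase, Bhlhe40 had 1082 and Ciart 949 in the Cry/Per/Nr1d_KO-labelled libraries, while Bhlhe41 had 84.4. In the Cry/Per_KO-labelled ones the levels were 1789 for Bhlhe40, 666 for Ciart and 109 for Bhlhe41. In Per/Nr1d_KO they were 474, 186 and 3.52, so Bhlhe40 led in every group and Bhlhe41 came last. Of the exon bases of Bhlhe41, 19% also lie in exons of Gm43909 on the other strand, and of those of Bhlhe40, 2.51% lie in exons of the antisense gene 0610040F04Rik, which itself had 1 to 5 counts per library. Of the stretches of 50 bases in Ciart transcripts, 11.9% also occur in Gm9176. How reads from such stretches were assigned is not given in the sources used here.

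The genomic surroundings of the 3 genes also differed between the lines, so each was set beside the 5 nearest tested genes on either side. Around Ciart on chromosome 3, all 10 neighbours had log2 fold changes below zero in the Cry/Per_KO-labelled libraries relative to the Cry/Per/Nr1d_KO-labelled ones, from -1.26 to -0.33 with a median of -0.82. The 577 tested genes of chromosome 3 had a median log2 fold change of -0.65 there, so the lower Ciart level was no lower than that of its chromosome and, with this median subtracted, its log2 fold change became 0.13. In Per/Nr1d_KO the neighbours of Ciart had medians of 0.16 and 0.997 against the Cry/Per/Nr1d_KO-labelled and the Cry/Per_KO-labelled libraries. In edgeR's test 1 and 7 of 10 were called higher, beside 11.3% and 15.2% of all genes tested. None of the 10 was called lower, beside 9.35% and 13.8% of all genes tested, and no neighbour was as low as Ciart. With the chromosome medians subtracted, the log2 fold change of Ciart in Per/Nr1d_KO was -2.59 and -2.72.

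Around Bhlhe41, the neighbours were lower in Per/Nr1d_KO as well. Against the Cry/Per/Nr1d_KO-labelled libraries their median log2 fold change was -0.89, and 5 of 10 were called lower, beside 9.35% of all genes tested. Among the 5 were the calcium channel gene Itpr2 (log2 fold change -1.42) and Sspn (-1.04). Against the Cry/Per_KO-labelled ones the median was -1.08 and 8 of 10 were called lower, beside 13.8% of all genes tested, with Sspn the lowest neighbour at -2.11. Bhlhe41 lay below each of its 10 neighbours in both comparisons, and the whole of chromosome 6 (560 tested genes) had medians of -0.082 and -0.41. For the smaller difference between the Cry/Per_KO-labelled and the Cry/Per/Nr1d_KO-labelled libraries, Bhlhe41 was like its surroundings, with a log2 fold change of 0.37 beside medians of 0.38 for its neighbours and 0.35 for its chromosome.

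Around Bhlhe40, also on chromosome 6, the neighbours had median log2 fold changes in Per/Nr1d_KO of -0.010 and -0.40 against the Cry/Per/Nr1d_KO-labelled and the Cry/Per_KO-labelled libraries. None of the 10 was called lower in either comparison, beside 9.35% and 13.8% of all genes tested, and none was as low as Bhlhe40. Its rank among the neighbours in the Cry/Per_KO-labelled libraries relative to the Cry/Per/Nr1d_KO-labelled ones was near the top, with 8 of 10 below it, and subtracting the chromosome median left a log2 fold change of 0.38.

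**Figure D3:**
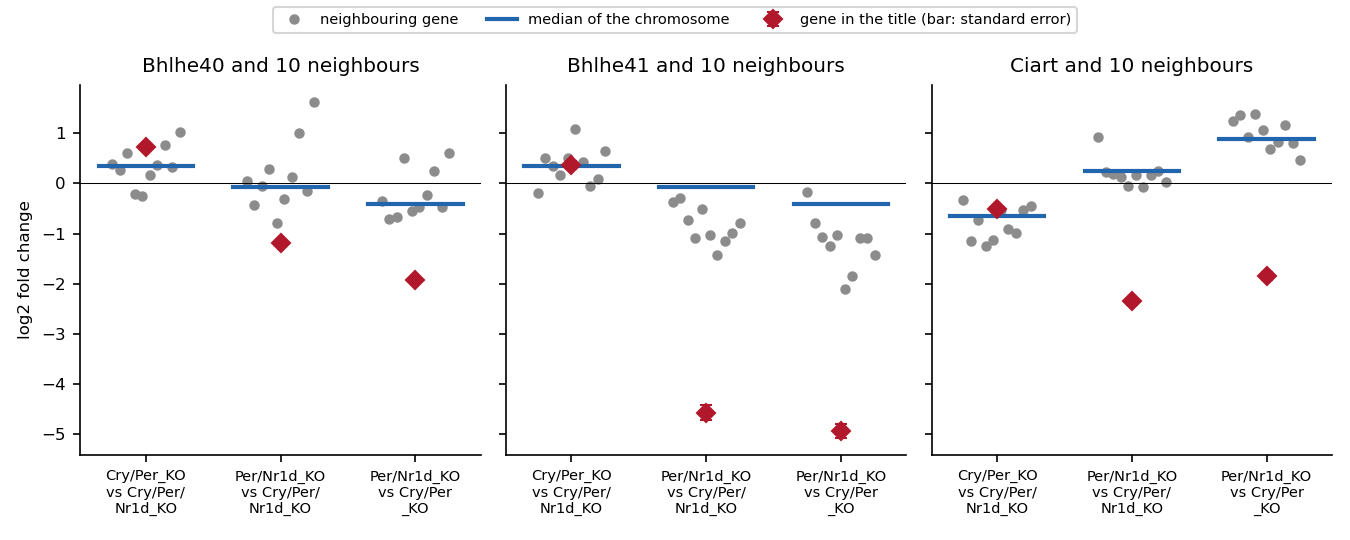
Log2 fold change (y axis) of Bhlhe40, Bhlhe41 and Ciart (diamonds, with standard error) in the 3 comparisons (x axis), beside their 10 neighbouring tested genes (grey points) and the median of all tested genes of the chromosome (blue lines). In both comparisons of Per/Nr1d_KO each gene lies below its 10 neighbours. In the comparison of the other lines each lies within the range of its neighbours.

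Of the 18 genes of the core clock loop, 16 were tested. Against the Cry/Per/Nr1d_KO-labelled libraries, 6 were called lower and 4 higher in Per/Nr1d_KO, beside 9.35% and 11.3% of all genes tested, and their median log2 fold change was -0.26. Hlf and Cry2 had the largest falls, with log2 fold changes of -3.99 and -2.55, and Npas2, a relative of Clock, rose the most (2.62). Bhlhe41 had a lower log2 fold change than any of the 16, and Ciart lay between Cry2 and Per2. Against the Cry/Per_KO-labelled libraries, 9 were called lower and 1, Npas2, higher (log2 fold change 2.09), beside 13.8% and 15.2% of all genes tested, with a median of -0.89. Hlf (-4.22) and Dbp (-3.47), transcription factors of the PAR bZIP family under E-box control, had the largest falls there, and Ciart (-1.84) lay just below Cry1 (-1.79). Clock itself had log2 fold changes of -0.40 and -0.44 and Arntl, which encodes BMAL1, of 1.07 and 0.17 in these comparisons.

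In the Cry/Per_KO-labelled libraries relative to the Cry/Per/Nr1d_KO-labelled ones, 7 of the 16 clock genes were called higher and 0 lower, beside 7.86% and 8.95% of all genes tested. At an adjusted p under 0.05 alone 14 were higher and 0 lower in edgeR's test, beside 38.1% and 38.3%. Cry1 differed the most (log2 fold change 1.66). Their median log2 fold change was 0.70, beside -0.0033 over all genes tested. Bhlhe40 (0.73) was close to this median, while Ciart (-0.51) lay below each of the 16. By the names of the deposited counts, the 7 clock genes are the lower ones in Cry/Per_KO.

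**Figure D4:**
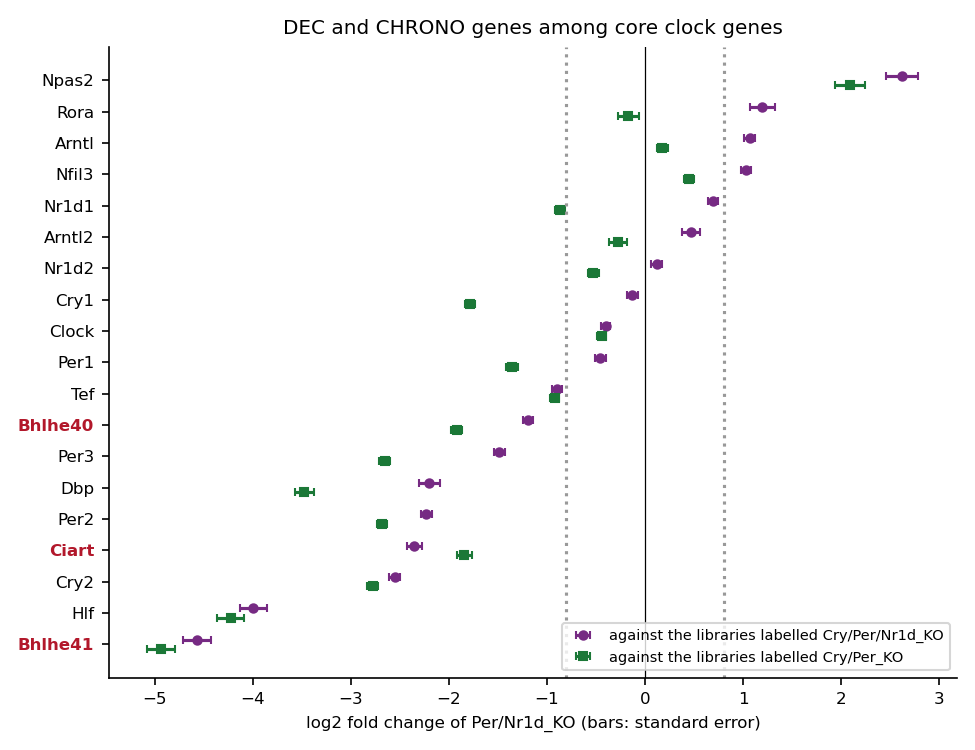
Log2 fold change (x axis, bars are standard errors) of Per/Nr1d_KO against the Cry/Per/Nr1d_KO-labelled libraries (circles) and the Cry/Per_KO-labelled ones (squares) for Bhlhe40, Bhlhe41, Ciart (red names) and 16 core clock genes. Dotted lines mark the fold limit of 0.81 on the log2 scale. Bhlhe41 is the lowest in both comparisons, at -4.57 and -4.93.

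The HES and HEY proteins are the nearest relatives of the DEC proteins and share their Orange domain. Of 10 such genes only 3 (Hes1, Hes6 and Hey2) passed the filter on low counts. Hes1, the main effector of Notch signalling, had 1122 normalized counts as the mean of the Cry/Per/Nr1d_KO-labelled libraries, 339 in the Cry/Per_KO-labelled ones and 368 in Per/Nr1d_KO. It was called lower in both of the latter groups (log2 fold change -1.73 and -1.63), and between these it differed by 0.10 (adjusted p = 0.365, edgeR), unlike the DEC genes, which were lowest in Per/Nr1d_KO. Hey2 fell in the Cry/Per_KO-labelled libraries (-1.16) and was called higher in Per/Nr1d_KO relative to them (0.93).

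Other helix-loop-helix factors that read CACGTG were described for comparison. Of 5 tested (Usf1, Usf2, Tfe3, Tfeb and Mitf), none was called lower in any of the 3 comparisons in edgeR's test. Of all genes tested, 8.95%, 9.35% and 13.8% were called lower, and with 5 genes a count of none is near this background. At an adjusted p under 0.05 alone, 1 was lower in each comparison, and 2, 3 and 1 were higher. Of all genes tested, 38.3% and 37.1% were lower and 38.1% and 38.7% higher in the comparisons with the Cry/Per/Nr1d_KO-labelled libraries. In the remaining comparison 9793 of 11934 genes passed in either direction. Mitf, the factor known from melanocytes, was called higher in the Cry/Per_KO-labelled libraries and in Per/Nr1d_KO relative to the Cry/Per/Nr1d_KO-labelled ones, with log2 fold changes of 2.27 and 2.20. Usf1 had a log2 fold change of 0.72 in Per/Nr1d_KO against the Cry/Per/Nr1d_KO-labelled libraries, inside the limit.

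Genes for known partners of the DEC and CIART proteins were described as well. Of 6 tested, 1 was called lower and 0 higher in each comparison of Per/Nr1d_KO. Of all genes tested, 9.35% and 13.8% were called lower there, and with 6 genes a count of 1 is near this background. Sirt1, a deacetylase, was called in Per/Nr1d_KO against the Cry/Per/Nr1d_KO-labelled libraries (lower, log2 fold change -0.82, close to the fold limit). Against the same libraries it was -0.68 in the Cry/Per_KO-labelled ones. Between the latter and Per/Nr1d_KO it differed by -0.15. Nr3c1, the glucocorticoid receptor, which CIART binds, was called in Per/Nr1d_KO against the Cry/Per_KO-labelled ones (lower, -0.87). Hdac1, the histone deacetylase that both kinds of repressor recruit, had log2 fold changes between -0.13 and 0.23 in the 3 comparisons. Those of its relative Hdac2 lay between -0.13 and 0.024, and those of Rxra, a nuclear receptor, between -0.30 and 0.12, all inside the fold limit.

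Bhlhe40 and Bhlhe41 are also induced by hypoxia through HIF, so 12 hypoxia-response genes were described. In the Cry/Per_KO-labelled libraries relative to the Cry/Per/Nr1d_KO-labelled ones, 7 were called higher and 0 lower at the fold limit in edgeR's test, beside 7.86% and 8.95% of all genes tested. At an adjusted p under 0.05 alone 9 were higher and 2 lower, beside 38.1% and 38.3%. Their median log2 fold change was 1.02. Egln3, a HIF prolyl hydroxylase, rose the most (log2 fold change 3.14), followed by the pyruvate dehydrogenase kinase gene Pdk1 (2.16). In Per/Nr1d_KO, 3 were called higher and 0 lower against the Cry/Per/Nr1d_KO-labelled libraries in edgeR's test, beside 11.3% and 9.35% of all genes tested. At an adjusted p under 0.05 alone, 8 were higher and 3 lower, beside 38.7% and 37.1% of all genes tested. Against the Cry/Per_KO-labelled ones, 5 were called lower and 1, Vegfa, higher (0.96), beside 13.8% and 15.2% of all genes tested. At an adjusted p under 0.05 alone, 9 were lower and 2 higher. Of the 11934 genes tested, 9793 passed at that threshold in either direction. The part of the hypoxia response in the levels of Bhlhe40 and Bhlhe41 was not tested.

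Genes with the most similar profile were taken as the 5 tested genes with the smallest Euclidean distance to each repressor gene, over centred log2 CPM values of the 6 libraries. For Bhlhe40 they included the limb and mesenchyme homeobox gene Prrx1 (distance 0.076), the cyclin gene Ccnb2 (0.083), Strip2 (0.11) and Cav1 (0.19), of which Strip2 and Cav1 lie on chromosome 6 as well. For Bhlhe41 they included Dock3 (0.27), Phex (0.31), Ica1 (0.34) and Rab6b (0.34). For Ciart they included Tnn (0.24), Tmeff2 (0.24), Mfap3l (0.28) and Prkg1 (0.29). No core clock gene was among them. Among the repressors the distances were 1.39 between Bhlhe40 and Ciart, 3.10 between Bhlhe41 and Ciart and 3.6 between Bhlhe40 and Bhlhe41. For Bhlhe41, 306 of the 11934 tested genes had a profile nearer than that of Ciart. Of the 11934 tested genes, 10898 had a profile nearer to Bhlhe40 than that of its relative Bhlhe41, and 1779 a profile nearer than that of Ciart. This distance grows with the size of the changes. Bhlhe40 and Bhlhe41 had the same order of group means, and the fall of Bhlhe41 in Per/Nr1d_KO was much larger.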

How the data were processed

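Poly-A RNA of each line was sequenced from stranded libraries as single-end reads of 50 bases. Alignment by the authors was to mm10 with STAR, and the deposited values are whole-number counts of reads per Entrez Gene ID from featureCounts, not normalized. The annotation and strand setting are not given in the sources used here. Comparisons that the authors made with DESeq2 1.22.2 (fold changes and p-values) were not used. Of the IDs, 93.0% matched a symbol in RefSeq's GRCm38.p6 gene table.

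Groups followed the genotype labels. Counts were scaled by TMM in edgeR 4.0.16 (R 4.3.3) and are given at the mean effective library size. Genes averaging 100 or more normalized counts, the study's limit, were tested in 1 quasi-likelihood fit of the 6 libraries, with Benjamini-Hochberg adjustment over all of them. The standard error is the size of the log2 fold change divided by the square root of F. Ratios used edgeR's log2 CPM at prior count 2. The scripts were tested on simulated data. Alternatives, among them DESeq2 1.42.0, are given in the closing section.

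The genes and lists were chosen with earlier results of these data known. Named were the 3 repressor genes, the targeted genes, the list members with the largest called rise and fall, neighbours and the 5 nearest profiles. Other list members were picked for their roles, after their values were seen. A few genes of the partner list and of the nearest profiles are not reported here.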

Additional observations from a re-analysis of the deposited data

How the results depend on the processing

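The fall of Bhlhe40, Bhlhe41 and Ciart in Per/Nr1d_KO was called against both reference groups under each of 15 alternatives, and exchanging the labels only swaps these comparisons. With the labels exchanged, the log2 fold changes between the Cry/Per_KO and Cry/Per/Nr1d_KO groups became -0.73 (Bhlhe40), -0.37 (Bhlhe41) and 0.51 (Ciart), a reversal by construction. With the chromosome median subtracted, Ciart became 0.13 in that comparison, also reversed, and Bhlhe41 became 0.023. Without a limit on the fold, the values 0.73, 0.37 and -0.51 counted as calls, and 9118, 9042 and 9793 genes were called in the 3 comparisons. Since more genes were tested, 3808, 4576 and 5590 genes were called without an expression filter. With a mean of at least 10 counts, for the same reason, 3311 genes were called in the Cry/Per_KO-labelled libraries against the Cry/Per/Nr1d_KO-labelled ones. In Per/Nr1d_KO against the latter, 3912 genes were called at that mean. DESeq2 at an adjusted p under 1e-22 called 1150 genes in the first comparison, against 2004 by DESeq2 at 0.05 and 2006 by edgeR, so the stricter threshold and not the tool lowered the count. Leaving out each library in turn gave 1962 to 2025, 2414 to 2487 and 3377 to 3476 called genes, and a range of the group means of the log2 ratio of Bhlhe40 to Bhlhe41 from 3.18 to 3.38, the ends without either Per/Nr1d_KO library.

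Libraries with the same replicate number shared only a number, with correlations of their deviations of -0.21, -0.10 and -0.024 between groups. With the replicate number as a block, the log2 fold changes were 0.73, 0.37 and -0.51 (Cry/Per_KO against Cry/Per/Nr1d_KO), -1.20, -4.57 and -2.35 (Per/Nr1d_KO against Cry/Per/Nr1d_KO) and -1.92, -4.94 and -1.84 (Per/Nr1d_KO against Cry/Per_KO) for Bhlhe40, Bhlhe41 and Ciart, with 2002, 2468 and 3457 called genes, and no call of these genes changed. Each SD comes from 2 values, and Bhlhe41 in Per/Nr1d_KO rests on 18 and 31 counts.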

Other observations

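Other genes with several copies of CACGTG in the promoter were looked up after the values of Ciart were seen. Of the tested genes, 9352 (78.4%) had a promoter entry, so shares are given over these genes only, and 16 of them held 3 or more copies. Of these 16, 1 gene, Ciart, was called lower in Per/Nr1d_KO against both other groups. Of the 8222 genes with no copy, 8.79% were called lower in Per/Nr1d_KO against the Cry/Per/Nr1d_KO-labelled libraries and 13.5% against the Cry/Per_KO-labelled ones, so 1 of 16 (6.25%) is not above the background. The others included Mfsd1, whose window held 5 copies, with log2 fold changes in Per/Nr1d_KO of 0.058 and 0.25 against the Cry/Per/Nr1d_KO-labelled and the Cry/Per_KO-labelled libraries. Lamp1, a lysosomal membrane protein gene with 4 copies, had log2 fold changes of -0.28 and -0.30, and Cdk4, a cell cycle kinase gene with 4 copies, had -0.36 and 0.24. Zmym6, also with 4, had 0.049 and 0.31. Another 4 of the 16, Apex1 (a DNA repair gene), Rragb, 4933434E20Rik and Ubap2l, each with 3 copies, were lowest in the Cry/Per_KO-labelled libraries, where 8.25% of the genes with no copy were called lower. They were called lower there relative to the Cry/Per/Nr1d_KO-labelled ones (log2 fold changes -1.25, -1.20, -1.30 and -0.86). In Per/Nr1d_KO they were called higher relative to the Cry/Per_KO-labelled libraries (1.77, 1.71, 1.49 and 1.06), as were 14.6% of the genes with no copy. None of the 4 was called in Per/Nr1d_KO against the Cry/Per/Nr1d_KO-labelled ones (0.19 to 0.52). Of these, 4933434E20Rik and Ubap2l lie, like Ciart, on chromosome 3, and the tested genes of that chromosome had median log2 fold changes of -0.65 and 0.88 in the first and second of these comparisons. The motif is a match of letters and not a measure of binding.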
